A study of Mus musculus with 13 samples.

Results

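Glycolytic enzymes, their regulators, glucose and lactate transporters and other target genes of the hypoxia-inducible factor HIF were followed in CD31-sorted cells of mouse ovarian tumors. The list names 35 genes, chosen by their function and taken from a written list, and each gene is read from 1 probe set, the one with the highest mean over all arrays. Of the 35, 31 had a probe set with a single gene symbol, against 18193 genes in the whole table, and all 31 passed the filter on low values, as did 15384 genes in all. These were 14 of 17 enzymes of the glycolytic steps, 6 of 6 regulators and transporters and 11 of 12 other targets. Gapdh and Bnip3l were on probe sets that carry several symbols, and Gpi1 and Eno1 were not named in the platform table used here. Gapdh was therefore read only from the control probe sets of the array.

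Glycolysis splits glucose into pyruvate in the cytosol and yields ATP without oxygen, and lactate dehydrogenase turns pyruvate into lactate so that the pathway can go on. HIF is a transcription factor that is degraded when oxygen is present. When oxygen is short it binds a short core motif in DNA and raises the transcription of glucose transporters, most glycolytic enzymes and genes of mitochondrial turnover, pH control and angiogenesis. Endothelial cells and activated macrophages are both known for a high rate of glycolysis.

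The cells came from tumors of SKOV3ip1, a human ovarian cancer line grown in athymic nude mice, a host that lacks most T cells. The labels give 3 groups of mouse cells sorted with an antibody to CD31, a surface protein of endothelial cells that some macrophages also carry. Control samples (n = 5), from mice that the study's methods describe as given a control IgG, were set beside B20-sensitive (n = 4) and B20-resistant (n = 4) samples, both from mice given B20, an antibody to VEGF-A, and parted by the bioluminescence of their tumors. No label ties an array to an animal, an age or a time point, so the p-values reflect how these samples vary among themselves. The paper describes taking tumor endothelial cells at maximal response and, later, at progression. Response to B20 and time on B20 therefore cannot be told apart here.

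RNA was measured on 13 single-color Affymetrix arrays, and values are given on the log2 scale after quantile normalization, with values under 2.01 set to that floor. The labelled cell type was not clear on most arrays. The median of 15 endothelial markers was 7.07 and 7.38 on control arrays 4 and 5 and 2.93 to 4.27 on the other 11, with Pecam1, which encodes CD31, at 6.56 and 6.56 on control arrays 4 and 5 and at most 3.41 elsewhere. The median of 12 macrophage markers was 3.69, 3.91 and 4.43 on sensitive arrays 1, 2 and 3, 9.63 on sensitive array 4 and 7.73 to 9.66 on all control and resistant arrays. Sensitive array 3 stood apart in lymphocyte markers. Its median of 6 B cell markers was 7.64, against at most 5.51 elsewhere. That of 7 T and NK cell markers was 5.10, against at most 4.47 elsewhere. The median of 8 mesothelial markers was highest on sensitive array 2 (7.37), sensitive array 1 (7.19) and resistant array 2 (6.87), and at most 5.49 elsewhere. On the same arrays, in that order, the median of 8 fibroblast and pericyte markers was 8.54, 7.92 and 8.67, against at most 7.02 elsewhere. Sensitive array 4 also had a difference of 5.95 between the 3′ and 5′ ends of the Actb and Gapdh control probe sets, against 2.23 to 3.82 on the other arrays. In such bulk samples fewer cells of a type and less RNA per cell cannot be told apart. Levels of different probe sets are not compared with one another.

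To show the HIF core motif in the genes that the results turn on, the 250 bases before a start site are printed for 6 of them. The motif was searched as ACGTG or GCGTG on both strands, capitals mark each match (CACGT and CACGC are matches on the opposite strand), and a CACGTG counts on each strand. The sequences are from RefSeq, build GRCm38.p6, 5′ to 3′ on the strand of the gene.
Slc2a1, chr4:119108495-119108744, plus strand: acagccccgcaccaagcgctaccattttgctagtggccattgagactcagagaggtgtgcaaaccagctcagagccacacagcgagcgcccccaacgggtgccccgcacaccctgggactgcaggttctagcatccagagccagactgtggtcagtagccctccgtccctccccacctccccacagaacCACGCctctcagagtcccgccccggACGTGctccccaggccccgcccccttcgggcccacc
Hk1, chr10:62340422-62340671, minus strand: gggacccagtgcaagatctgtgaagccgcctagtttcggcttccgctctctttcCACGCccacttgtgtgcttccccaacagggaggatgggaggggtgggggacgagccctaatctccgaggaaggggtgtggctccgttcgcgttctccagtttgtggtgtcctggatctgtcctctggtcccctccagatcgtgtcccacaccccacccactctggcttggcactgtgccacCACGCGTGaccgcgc
Hk2, chr6:82774455-82774704, minus strand: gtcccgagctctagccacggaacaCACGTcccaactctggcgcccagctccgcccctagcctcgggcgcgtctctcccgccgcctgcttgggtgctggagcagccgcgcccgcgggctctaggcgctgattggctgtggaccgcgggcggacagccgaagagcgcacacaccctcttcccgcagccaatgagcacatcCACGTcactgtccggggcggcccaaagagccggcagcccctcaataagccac
Pgk1, chrX:106186850-106187099, plus strand: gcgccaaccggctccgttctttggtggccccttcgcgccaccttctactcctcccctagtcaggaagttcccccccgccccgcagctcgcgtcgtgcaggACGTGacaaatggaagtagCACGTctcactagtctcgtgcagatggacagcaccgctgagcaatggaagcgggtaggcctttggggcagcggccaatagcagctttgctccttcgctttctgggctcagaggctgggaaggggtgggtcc
Ldha, chr7:46845554-46845803, plus strand: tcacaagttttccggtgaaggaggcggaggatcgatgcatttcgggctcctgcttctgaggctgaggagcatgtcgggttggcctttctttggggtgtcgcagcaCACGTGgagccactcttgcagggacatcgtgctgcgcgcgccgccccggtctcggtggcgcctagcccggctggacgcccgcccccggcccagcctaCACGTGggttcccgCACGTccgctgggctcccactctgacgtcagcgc
Bnip3, chr7:138909507-138909756, minus strand: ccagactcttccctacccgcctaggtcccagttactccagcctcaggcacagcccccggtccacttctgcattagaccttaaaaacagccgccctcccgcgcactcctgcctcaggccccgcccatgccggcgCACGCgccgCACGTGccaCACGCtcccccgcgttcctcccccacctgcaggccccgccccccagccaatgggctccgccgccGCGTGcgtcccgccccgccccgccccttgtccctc
Slc2a1 held 2 matches, Hk1 3, Hk2 2, Pgk1 2, Ldha 5 and Bnip3 5. A window was given for 32 of the 35 genes, and 26 of these, 81.2%, held at least 1 match in a window of theirs, against 41.5% of 27025 genes. By class it was 14 of 17 glycolytic steps, 5 of 5 regulators and transporters and 7 of 10 other targets. A gene with several windows has more chances of a match. Counted by window, 70% of 50 windows of the listed genes held a match, against 38.6% of 32851 windows. A match is a description of these letters and not a binding site. Hk1 and Ldha each have another start site in the table, with 0 matches before that of Hk1 and 1 before that of Ldha.

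Across the arrays, the enzymes of the glycolytic steps were lowest in sensitive samples, and control and resistant samples overlapped. After each gene was centred on its own mean over the 13 arrays, the median of the 14 enzymes was −0.39, −1.41, −1.31 and −0.27 on sensitive arrays 1 to 4. It was 0.28, 0.77, 0.55, 0.48 and −0.04 on control arrays 1 to 5 and 1.19, −0.33, 0.57 and 0.21 on resistant arrays 1 to 4. Resistant array 1 was thus the highest of all arrays and resistant array 2 lay between sensitive arrays 1 and 4. For the 11 other targets the centred median was −0.56, −0.14, 0.29, −0.11 and −0.15 on control arrays 1 to 5. It was 0.33 and 0.38 on sensitive arrays 1 and 2, above every control array, −0.92 on sensitive array 3 and −0.29 on sensitive array 4. On resistant arrays 1 to 4 it was 0.86, 0.70, 0.13 and 0.03.

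**Figure D1:**
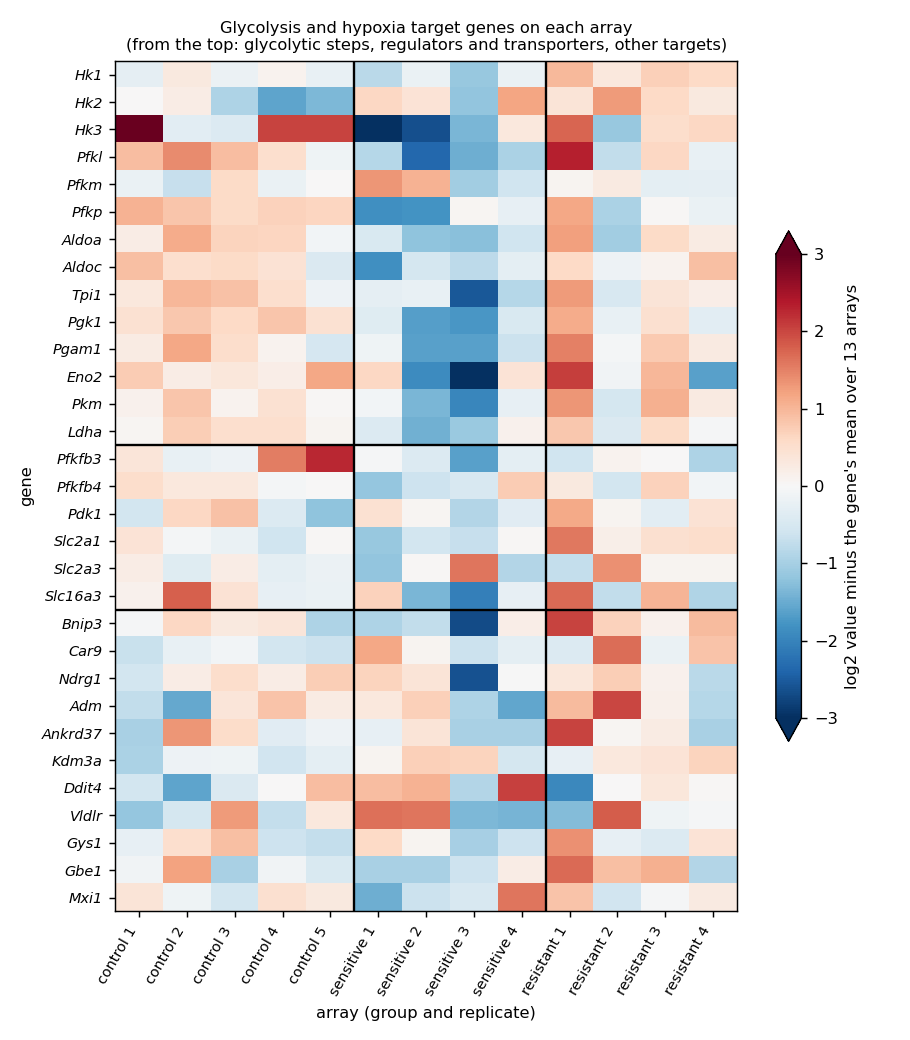
Log2 value of each of the 31 genes minus its mean over the 13 arrays (color, cut at −3 and 3), with 1 column for each array and 1 row for each gene. The 14 glycolytic steps at the top are mostly blue on the 4 sensitive arrays and on resistant array 2 and most red on resistant array 1, where 0 of 14 lie under their mean, and the 11 other targets at the bottom have no such common order.

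Set against the range of the 5 control arrays, sensitive arrays 1, 2 and 3 had 10, 11 and 13 of the 14 enzymes under every control array, where 29.0%, 25.0% and 29.5% of all genes tested were. Sensitive array 4 had 7 of 14 under every control array, against 18.6% of all genes, and resistant array 2 had 9 of 14, against 17.8%. Resistant array 1 had 11 of 14 above every control array, against 16.6% of all genes, and 0 under, against 17.2%. Resistant array 3 had 1 under and 3 above, against 13.9% and 13.9% of all genes. Resistant array 4 had 5 under and 2 above, against 18.3% and 26.7%. These shares describe single arrays and carry no test.

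Resistant against sensitive samples compares tumors that escaped B20 with tumors that still responded and, by the paper's account, were taken earlier. In this comparison 28 of the 31 genes had a higher mean in resistant samples. The median log2 difference was 1.27 for the glycolytic steps, 0.48 for the regulators and transporters and 0.49 for the other targets, beside −0.07 for all genes tested. That of the other targets was 0.27 without sensitive array 3 and 0.80 without sensitive array 1. In 13 of 31 genes the unadjusted p was under 0.05, and each of the 13 was higher in resistant samples: 10 of 14 enzymes, 1 of 6 regulators and transporters and 2 of 11 other targets. Among all 15384 genes, 4.54% were higher and 2.53% lower at that threshold. In 6 genes (Hk1, Slc2a1, Pgam1, Pgk1, Pfkl and Aldoc) every resistant array lay above every sensitive array, which 0.975% of all genes did, and 0 genes lay wholly below, against 0.897%. After Benjamini-Hochberg adjustment over all genes limma called 0 of the 31 at 0.05, and 0% of all genes. The methods' t-test had 7 of the 31 at an unadjusted p under 0.05, against 3.44% of all genes, and 0 after adjustment. Without resistant array 1, limma had 8 of 31 at an unadjusted p under 0.05, where 4.61% of all genes were in either direction. Without the 3 sensitive arrays of low macrophage markers 1 sensitive array stays, too few to read a count at that threshold.

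Sensitive samples were the low group against control samples as well. The median log2 difference, sensitive minus control, was −1.35 for the glycolytic steps, −0.55 for the regulators and transporters and −0.20 for the other targets, beside 0.09 for all genes. An unadjusted p under 0.05 was found for 11 of 31 genes, all lower in sensitive samples, of which 10 were enzymes of the glycolytic steps and 1 was Pfkfb3. Among all genes 6.57% were lower and 5.32% higher at that threshold. In 6 enzymes (Pgk1, Pfkl, Pfkp, Aldoa, Tpi1 and Pkm) every sensitive array lay under every control array, as in 1.59% of all genes, and 0 of the 31 lay wholly above, against 1.43%. None passed after adjustment in limma (0 of 31, 0% of all genes), and the methods' t-test had 10 of 31 at an unadjusted p under 0.05 and 0 after adjustment. This comparison and the one before it share the sensitive arrays, and without sensitive arrays 1, 2 and 3 only 1 stays. The median of the other targets changed sign without sensitive array 3, to 0.048.

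Between resistant and control samples few of these genes had a small p. The median log2 difference, resistant minus control, was −0.16 for the glycolytic steps, 0.09 for the regulators and transporters and 0.32 for the other targets, beside 0.03 for all genes. That of the other targets was 0.17 without control array 4 and 0.58 without resistant array 4. At an unadjusted p under 0.05, 4 of 31 genes (Hk1, Hk2, Slc2a1 and Kdm3a) were higher in resistant samples and 0 lower, and 0.995% of all genes were higher and 1.53% lower. Hk1 and Hk2 were above every control array on every resistant array, as 1.31% of all genes were, and 0 genes were wholly below, against 1.39%. After adjustment limma called 0 of 31 and 0% of all genes, and the methods' t-test had 3 of 31 at an unadjusted p under 0.05 and 0 after adjustment. Without control arrays 4 and 5, the endothelial-rich pair, 0 of the 31 genes had an unadjusted p under 0.05, and 1.66% of all genes had.

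**Figure D2:**
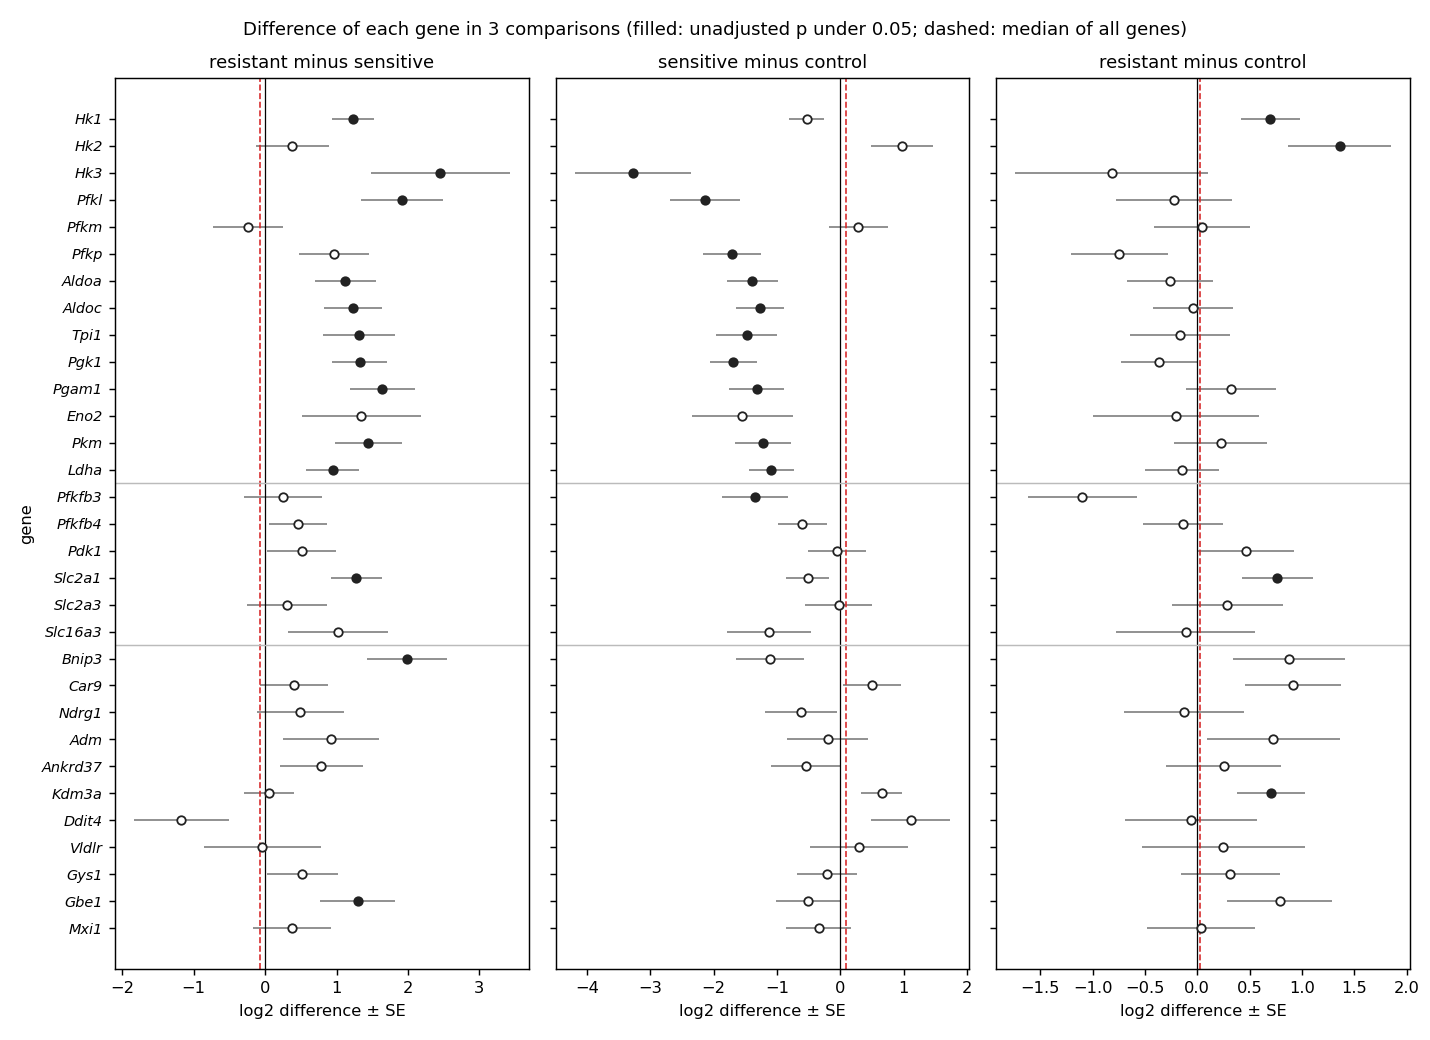
Log2 difference of each of the 31 genes with its standard error (bars) in 3 comparisons, from the limma fit over 13 arrays; filled points have an unadjusted p under 0.05 and the dashed line is the median of all genes tested. Most enzymes lie to the right of 0 for resistant minus sensitive (28 of 31 genes), to the left for sensitive minus control (25 of 31), and near 0 for resistant minus control (median 0.04).

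Glucose enters the cell through Slc2a1, the glucose transporter GLUT1. Slc2a1 measured 8.73, 8.27, 8.13, 7.73 and 8.37 on control arrays 1 to 5, 7.18, 7.76, 7.64 and 8.36 on sensitive arrays 1 to 4 and 9.90, 8.50, 8.80 and 8.85 on resistant arrays 1 to 4. The lowest resistant array was above the highest sensitive array, and resistant array 2 alone lay under the highest control array. Resistant samples were higher than sensitive samples by 1.28 ± 0.36 (SE, unadjusted p = 0.00298) and than control samples by 0.77 ± 0.34 (SE, unadjusted p = 0.0400), and its other 2 probe sets gave 1.59 and 1.42 for resistant minus sensitive. Without resistant array 1 the difference of Slc2a1 from control samples was 0.47, at an unadjusted p of 0.169. Slc2a3, the transporter GLUT3, had group means of 5.16 ± 0.28 in control, 5.13 ± 1.26 in sensitive and 5.44 ± 0.87 in resistant samples (SD), and its probe sets disagreed in sign.

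The hexokinases trap glucose in the cell by phosphorylation, and the 3 of them behaved differently. Hk1 measured 6.004, 6.56, 6.09, 6.37 and 6.05 on control arrays 1 to 5, 5.45, 6.08, 5.13 and 6.07 on sensitive arrays 1 to 4 and 7.24, 6.58, 6.97 and 6.86 on resistant arrays 1 to 4. Hk1, the form most tissues carry, was therefore higher on each resistant array than on any of the other 9. The difference was 1.23 ± 0.30 (SE, unadjusted p = 0.00106) from sensitive samples, a 2.34-fold level, and 0.70 ± 0.28 (SE, unadjusted p = 0.0275) from control samples, and the second Hk1 probe set gave 1.25 and 0.55. Hk1 was also the only one of the 13 genes whose unadjusted p for resistant minus sensitive stayed under 0.05 in each of 28 alternative settings, with log2 differences from 0.84 to 1.55.

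Hk2 measured 7.87, 8.07, 6.93, 6.27 and 6.51 on control arrays 1 to 5, 8.47, 8.27, 6.67 and 9.03 on sensitive arrays 1 to 4 and 8.25, 9.12, 8.46 and 8.15 on resistant arrays 1 to 4. Hk2, the inducible form and a well-known HIF target, was thus above all control arrays on all resistant arrays and on 3 of 4 sensitive arrays, and lowest on control arrays 4 and 5. Resistant samples were higher than control samples by 1.36 ± 0.49 (SE, unadjusted p = 0.0148), while the difference from sensitive samples was 0.38 ± 0.52 (SE, unadjusted p = 0.473). Hk3 measured 9.65, 6.38, 6.27, 8.71 and 8.72 on control arrays 1 to 5, 2.34, 4.05, 5.31 and 6.99 on sensitive arrays 1 to 4 and 8.43, 5.55, 7.22 and 7.30 on resistant arrays 1 to 4. Hk3, the hexokinase of myeloid cells, ran from 2.34 on sensitive array 1 to 9.65 on control array 1. Its differences were 2.45 ± 0.97 (SE, unadjusted p = 0.0244) for resistant minus sensitive and −3.27 ± 0.92 (SE, unadjusted p = 0.00323) for sensitive minus control. A second Hk3 probe set gave 1.08 and −1.97. The macrophage markers were low on the same sensitive arrays 1, 2 and 3. With their median as a covariate the Hk3 difference between resistant and sensitive samples was −0.12. That covariate was low only on sensitive arrays, so it is hard to part from the group. The part of macrophages in the Hk3 values was not tested.

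**Figure D3:**
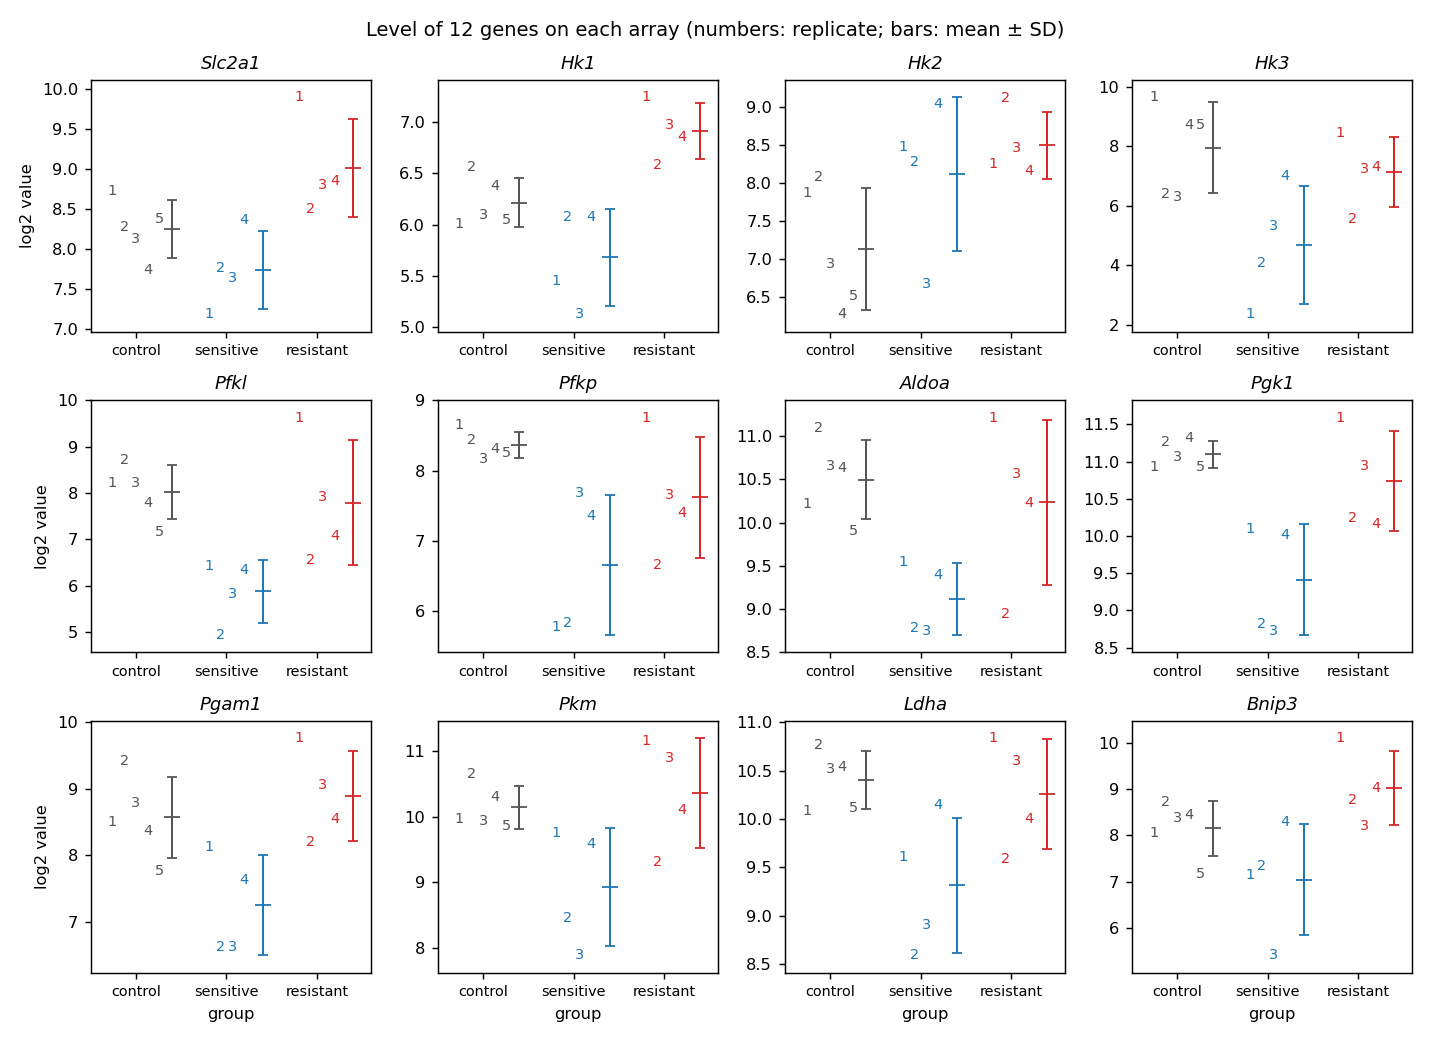
Log2 level of 12 genes on each array, drawn as the replicate number, with the mean and SD of each group as a bar; each panel has its own scale, which does not start at 0. Hk1 and Slc2a1 are above every sensitive array on all 4 resistant arrays, Hk2 is above every control array on all 4 resistant arrays, and Pfkl, Pfkp, Aldoa, Pgk1 and Pkm are under every control array on all 4 sensitive arrays.

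Phosphofructokinase commits the sugar to glycolysis and has a liver-type, a platelet-type and a muscle-type subunit. Pfkl measured 8.21, 8.72, 8.21, 7.79 and 7.17 on control arrays 1 to 5, 6.43, 4.94, 5.82 and 6.33 on sensitive arrays 1 to 4 and 9.63, 6.55, 7.92 and 7.08 on resistant arrays 1 to 4. Every sensitive array was under every control and every resistant array for this liver-type subunit. The difference was 1.92 ± 0.58 (SE, unadjusted p = 0.00528) for resistant minus sensitive and −2.14 ± 0.55 (SE, unadjusted p = 0.00166) for sensitive minus control. A second Pfkl probe set gave 1.09 and −1.38, and the dimmest of the 3 gave 0.16 and 0.13. Pfkp measured 8.64, 8.44, 8.17, 8.30 and 8.25 on control arrays 1 to 5, 5.77, 5.82, 7.67 and 7.35 on sensitive arrays 1 to 4 and 8.76, 6.66, 7.65 and 7.40 on resistant arrays 1 to 4. The platelet-type subunit was low on resistant array 2 and on the first pair of sensitive arrays. These are the 3 arrays with the highest mesothelial and fibroblast markers. All sensitive arrays were under all control arrays. Sensitive minus control was −1.71 ± 0.46 (SE, unadjusted p = 0.00242), and resistant minus sensitive was 0.96 ± 0.49 (SE, unadjusted p = 0.0686). The muscle-type Pfkm had the opposite sign in both, 0.28 and −0.24, and was highest on sensitive arrays 1 and 2, at 6.13 and 5.83, against 3.76 to 5.37 on all other arrays.

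Aldolase cleaves the sugar chain. Aldoa measured 10.21, 11.09, 10.65, 10.63 and 9.90 on control arrays 1 to 5, 9.54, 8.78, 8.74 and 9.39 on sensitive arrays 1 to 4 and 11.22, 8.94, 10.56 and 10.23 on resistant arrays 1 to 4. All 4 sensitive arrays were under the control range, and resistant array 2 lay among the sensitive arrays. Aldoa differed by −1.39 ± 0.41 (SE, unadjusted p = 0.00434) for sensitive minus control and 1.12 ± 0.43 (SE, unadjusted p = 0.0204) for resistant minus sensitive, and its 5 probe sets had the same sign in both comparisons. Aldoc measured 5.67, 5.28, 5.35, 5.21 and 4.35 on control arrays 1 to 5, 2.93, 4.24, 3.97 and 4.48 on sensitive arrays 1 to 4 and 5.37, 4.61, 4.88 and 5.67 on resistant arrays 1 to 4. Aldoc, the aldolase known from brain, was higher on every resistant than on every sensitive array, by 1.23 ± 0.40 (SE, unadjusted p = 0.00896), and overlapped between sensitive and control samples, with −1.26 ± 0.38 (SE, unadjusted p = 0.00526). Tpi1, which interconverts its products, had means of 9.72 ± 0.46 in control, 8.24 ± 1.09 in sensitive and 9.55 ± 0.72 in resistant samples (SD), and its lowest value was 6.67 on sensitive array 3, without which resistant minus sensitive was 0.79 instead of 1.31 for Tpi1.

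Gapdh, which oxidizes glyceraldehyde 3-phosphate, was read from control probe sets and was not tested. Its 3′ control probe set measured 11.19, 12.06, 11.85, 11.58 and 11.15 on control arrays 1 to 5, 10.60, 10.06, 10.23 and 10.98 on sensitive arrays 1 to 4 and 11.76, 10.90, 11.30 and 11.35 on resistant arrays 1 to 4. On this 3′ probe set every sensitive array was thus under every control array, and resistant array 2 was under sensitive array 4. The middle Gapdh control probe set did not part the groups in this way. There sensitive array 1 was 10.73, above control arrays 1, 4 and 5 at 10.17, 10.66 and 10.27. At the 5′ end of the transcript Gapdh was 4.63 on sensitive array 4 and 6.45 to 9.36 on the other 12 arrays.

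Pgk1, phosphoglycerate kinase, makes the first ATP of the pathway. Pgk1 measured 10.93, 11.27, 11.07, 11.31 and 10.93 on control arrays 1 to 5, 10.10, 8.82, 8.72 and 10.01 on sensitive arrays 1 to 4 and 11.59, 10.25, 10.95 and 10.16 on resistant arrays 1 to 4. Sensitive arrays 2 and 3 were the lowest, and all sensitive arrays lay under all control and all resistant arrays. Pgk1 had the smallest unadjusted p of the 31 genes for sensitive minus control, −1.69 ± 0.37 (SE, unadjusted p = 0.000412), with an adjusted p of 0.189 in limma, and 1.32 ± 0.39 (SE, unadjusted p = 0.00412) for resistant minus sensitive. The other Pgk1 probe sets gave smaller differences of the same sign, −0.85 and −0.68 for sensitive minus control and 0.96 and 0.80 for resistant minus sensitive. For resistant minus control the 3 Pgk1 probe sets gave −0.36, 0.11 and 0.12, so that no direction holds there.

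Pgam1 measured 8.51, 9.42, 8.79, 8.37 and 7.77 on control arrays 1 to 5, 8.13, 6.62, 6.63 and 7.63 on sensitive arrays 1 to 4 and 9.77, 8.20, 9.06 and 8.54 on resistant arrays 1 to 4. Pgam1, the mutase of the next step, was lowest on sensitive arrays 2 and 3, and all sensitive arrays were under all resistant arrays. The difference was 1.64 ± 0.45 (SE, unadjusted p = 0.00282) for resistant minus sensitive, a 3.12-fold level, and −1.32 ± 0.43 (SE, unadjusted p = 0.00836) for sensitive minus control. Eno2, the neuronal enolase, ran from 2.17 on sensitive array 3 to 7.40 on resistant array 1, with SDs of 1.83 and 1.57 in sensitive and resistant samples, and the differences were within that spread.

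Pkm measured 9.96, 10.65, 9.93, 10.29 and 9.86 on control arrays 1 to 5, 9.75, 8.45, 7.88 and 9.59 on sensitive arrays 1 to 4 and 11.16, 9.30, 10.89 and 10.11 on resistant arrays 1 to 4. Pkm, the pyruvate kinase of most tissues, was under the control range on all sensitive arrays and on resistant array 2, and above it on resistant arrays 1 and 3. It differed by 1.44 ± 0.47 (SE, unadjusted p = 0.00777) for resistant minus sensitive and by −1.22 ± 0.44 (SE, unadjusted p = 0.0151) for sensitive minus control. Ldha measured 10.08, 10.76, 10.52, 10.53 and 10.11 on control arrays 1 to 5, 9.61, 8.59, 8.91 and 10.14 on sensitive arrays 1 to 4 and 10.84, 9.59, 10.60 and 9.998 on resistant arrays 1 to 4. Ldha, lactate dehydrogenase A, was lowest on sensitive arrays 2 and 3, while sensitive array 4 was within the control range. The difference was 0.94 ± 0.37 (SE, unadjusted p = 0.0235) for resistant minus sensitive, with only sensitive array 4 kept in its group it was 0.11, and sensitive minus control was −1.09 ± 0.35 (SE, unadjusted p = 0.00806). Slc16a3, the lactate exporter MCT4, had the same signs, 1.02 and −1.13, with unadjusted p of 0.168 and 0.111.

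Of the regulators, Pfkfb3, which makes the sugar that activates phosphofructokinase and is known from sprouting endothelium, was highest on the endothelial-rich control arrays 4 and 5, at 7.91 and 8.64, against 4.76 to 6.74 elsewhere. Its difference was −1.35 ± 0.52 (SE, unadjusted p = 0.0209) for sensitive minus control and −1.10 ± 0.52 (SE, unadjusted p = 0.0525) for resistant minus control, and a dim second probe set had the opposite sign in both. Pfkfb4 had an unadjusted p above 0.05 in each comparison. Pdk1, a kinase that inhibits pyruvate dehydrogenase, differed by 0.51 for resistant minus sensitive on its brightest probe set and by 2.01 and 1.58 on 2 others, and its last probe set was at the floor.

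Among the other targets, Bnip3, a mitophagy receptor, had the smallest p between resistant and sensitive samples. Bnip3 measured 8.06, 8.71, 8.37, 8.45 and 7.16 on control arrays 1 to 5, 7.15, 7.33, 5.40 and 8.28 on sensitive arrays 1 to 4 and 10.11, 8.77, 8.21 and 9.02 on resistant arrays 1 to 4. Resistant array 3 alone was under the highest sensitive array, and sensitive array 3 was the lowest of all. Bnip3 was higher in resistant than in sensitive samples by 1.99 ± 0.56 (SE, unadjusted p = 0.00335), a 3.96-fold level, and the difference was −1.11 ± 0.53 (SE, unadjusted p = 0.0572) for sensitive minus control and 0.88 ± 0.53 (SE, unadjusted p = 0.122) for resistant minus control.

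Gbe1, the glycogen branching enzyme, was near the floor. Gbe1 measured 2.90, 4.21, 2.01, 2.89 and 2.54 on control arrays 1 to 5, 2.01, 2.01, 2.38 and 3.21 on sensitive arrays 1 to 4 and 4.70, 3.89, 4.07 and 2.13 on resistant arrays 1 to 4. It was at the floor on 3 of the 13 arrays, 2 of them sensitive, and differed by 1.29 ± 0.53 (SE, unadjusted p = 0.0279) for resistant minus sensitive, with resistant array 4 among the low arrays. Kdm3a measured 5.62, 6.43, 6.44, 6.001 and 6.29 on control arrays 1 to 5, 6.66, 7.28, 7.25 and 6.04 on sensitive arrays 1 to 4 and 6.34, 6.88, 6.98 and 7.24 on resistant arrays 1 to 4. Kdm3a, a histone demethylase induced by HIF, had means of 6.81 ± 0.59 in sensitive and 6.86 ± 0.38 in resistant samples (SD). Resistant samples were higher than control samples by 0.71 ± 0.33 (SE, unadjusted p = 0.0482), with resistant array 1 inside the control range.

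Car9 measured 4.06, 4.52, 4.66, 4.18 and 4.09 on control arrays 1 to 5, 5.90, 4.81, 4.09 and 4.45 on sensitive arrays 1 to 4 and 4.32, 6.42, 4.53 and 5.59 on resistant arrays 1 to 4. Car9, a carbonic anhydrase that exports acid and is often used as a marker of hypoxia, exceeded the control range on 2 resistant arrays (2 and 4) and on 2 sensitive arrays (1 and 2). It differed by 0.91 ± 0.46 (SE, unadjusted p = 0.0658) for resistant minus control and 0.40 ± 0.48 (SE, unadjusted p = 0.417) for resistant minus sensitive. The median of the 8 mesothelial markers was 7.19 and 7.37 on sensitive arrays 1 and 2. It was 6.87, 5.49 and 4.45 on resistant arrays 2, 3 and 4 and at most 4.96 elsewhere. The part of mesothelial or fibroblast cells in the Car9 values was not tested.

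The remaining targets did not separate the groups, with unadjusted p above 0.05 in all 3 comparisons. Ddit4, an inhibitor of mTORC1 induced by stress and low oxygen, had the opposite sign to most of the list, −1.17 for resistant minus sensitive, and was 5.01 on resistant array 1, where most of the enzymes were highest. Vldlr, a lipoprotein receptor, was 5.31, 5.27 and 5.49 on sensitive array 1, sensitive array 2 and resistant array 2, and 2.28 to 4.94 on the others. These 3 arrays had the highest mesothelial and fibroblast markers. Adm, a vasodilator peptide, was highest on resistant array 2, at 10.14, and Ndrg1 was lowest on sensitive array 3, at 7.10. Ankrd37 was at the floor on 4 of 13 arrays. Gys1, glycogen synthase, and Mxi1, an antagonist of Myc, differed by 0.52 and 0.37 for resistant minus sensitive.

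The glycolytic enzymes were low on sensitive arrays 1, 2 and 3, where the macrophage markers were low as well, and what part macrophages had in these differences was not tested directly. For resistant minus sensitive 11 of the 12 macrophage markers were higher at an unadjusted p under 0.05, with a median of 2.999, and for sensitive minus control 11 were lower, with a median of −2.92. Their summed linear level was 8670 to 14562 on control arrays, 1008 to 1147 on sensitive arrays 1, 2 and 3, 16306 on sensitive array 4 and 7865 to 17032 on resistant arrays, and 1 marker was at the floor on each of sensitive arrays 1, 2 and 3 and 0 elsewhere. On sensitive array 4, which held the macrophage markers, the median of the 14 enzymes was 7.49, against 8.01 to 8.58 on the control arrays. Resistant arrays 2 and 4 were under that control range too, at 7.43 and 7.77, with macrophage medians of 8.27 and 8.75, and sensitive array 4 is the one with the 3′ to 5′ difference of 5.95. With sensitive arrays 1, 2 and 3 left out, 1 sensitive array stays, which is assumed to vary like the others, so only medians are given. In that setting the median of the 20 glycolysis genes was −0.66 for sensitive minus control instead of −1.24, and 0.65 for resistant minus sensitive instead of 1.17, where that of the 11 other targets was 0.77. With the macrophage median as a covariate in place of that, the median of the glycolysis genes was −0.77 for sensitive minus control and 0.69 for resistant minus sensitive, and that of the other targets was 0.91 for the latter. There were then 4 of 31 genes at an unadjusted p under 0.05 for resistant minus sensitive (Hk1, Pgam1 and Adm higher and Mxi1 lower) and 6 for sensitive minus control (3 higher and 3 lower), against 4.04% and 4.21% of all genes. Hk1 and Pgam1 then differed by 0.93 and 1.38 for resistant minus sensitive, at unadjusted p of 0.0333 and 0.0443.

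**Figure D4:**
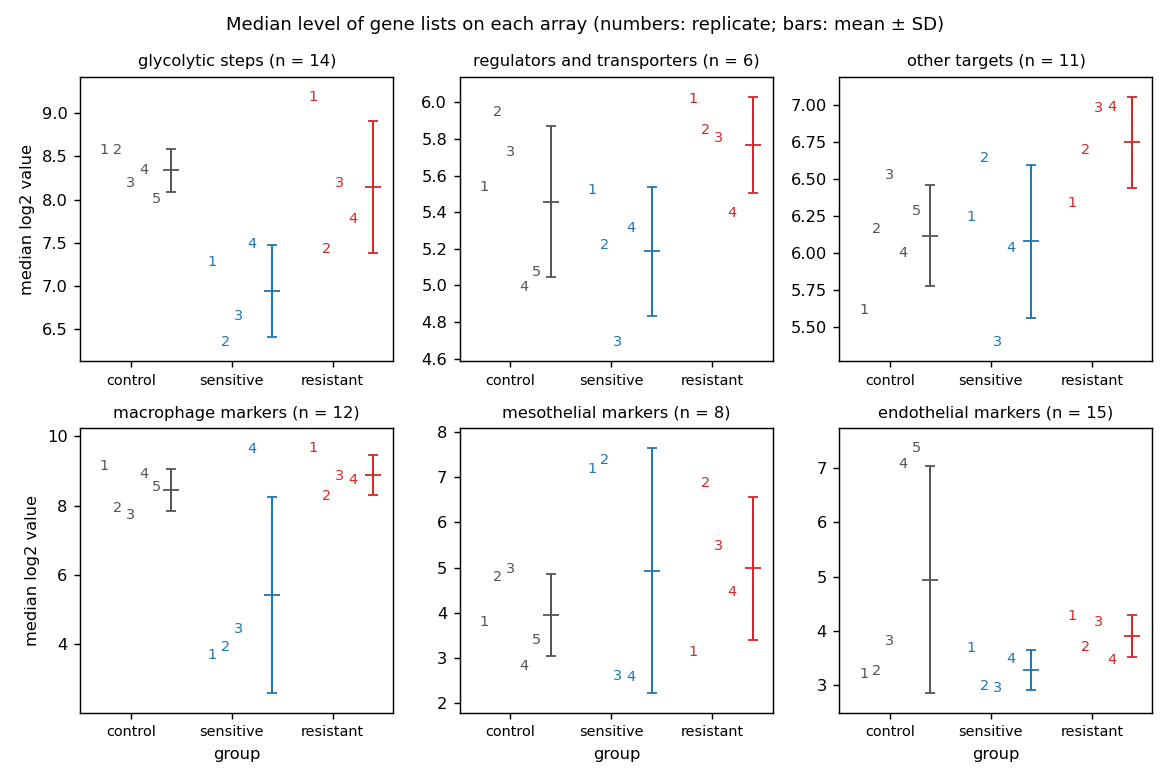
Median log2 level of 3 classes of the genes and of 3 marker lists on each array, drawn as the replicate number, with the mean and SD of each group as a bar; scales differ between panels and do not start at 0. The 14 glycolytic steps are under the control range on all 4 sensitive arrays and on resistant arrays 2 and 4, whereas the 12 macrophage markers are low on sensitive arrays 1 to 3 and high on sensitive array 4, at 9.63.

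Leaving out sensitive array 4 also changed which single genes passed after adjustment. The sensitive arrays that then stay are the ones with low macrophage markers. With all arrays kept, Hk3 and Pgk1 passed for sensitive minus control under the 3′ to 5′ covariate. Without sensitive array 4, limma gave an adjusted p under 0.05 for 3 of the 31 genes in resistant minus sensitive, where 428 genes in all passed, and for 5 of 31 in sensitive minus control, where 696 passed. The former were Bnip3 (2.40, adjusted p = 0.0319), Hk1 (1.36, adjusted p = 0.0336) and Slc2a1 (1.49, adjusted p = 0.0425). The latter were Pgk1 (−1.89, adjusted p = 0.0121), Hk3 (−4.04, adjusted p = 0.0204), Ldha (−1.37, adjusted p = 0.0338), Pfkp (−1.94, adjusted p = 0.0388) and Pfkl (−2.29, adjusted p = 0.0489).

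Neighbouring pathways were read from lists of other genes, each count to be read beside the shares of all genes at that threshold, which were 4.54% higher and 2.53% lower for resistant minus sensitive, 5.32% and 6.57% for sensitive minus control and 0.995% and 1.53% for resistant minus control. Of 26 further HIF targets tested, 7 were higher and 0 lower in resistant than in sensitive samples at an unadjusted p under 0.05, with a median of 0.65 against −0.07 for all genes. Ero1a, which drives disulfide formation in the endoplasmic reticulum, differed by 2.27 (adjusted p = 0.0654 in limma), Plod1 and P4ha1, hydroxylases of collagen, by 2.07 and 1.68. For sensitive minus control 5 of these 26 were lower and 0 higher, led by P4ha1 at −1.65, and for resistant minus control 4 were higher and 0 lower, among them Ero1a at 0.95, Cited2 at 1.04 and the oxygen sensor Egln3 at 1.66, which was above every control array on every resistant array.

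The TCA cycle, which burns the pyruvate that enters the mitochondrion, held few such differences. Of 22 genes tested, 0 had an unadjusted p under 0.05 for resistant minus sensitive, with a median of −0.01 against −0.07 for all genes, and 1, Sdhd at −1.32, for sensitive minus control. In the pentose phosphate pathway, Pgd and Taldo1 were higher in resistant than in sensitive samples by 1.12 and 0.83 and Rpia was lower, at −0.74, among 7 genes. For sensitive minus control Pgd was −1.09, Taldo1 −0.98 and Pgls 0.68. Among 7 further glycogen genes, Pygl, the liver glycogen phosphorylase, differed by 1.88 for resistant minus sensitive and −1.83 for sensitive minus control, and Gsk3b by −0.84 for the former. Of 21 further glycolysis and transport genes, mostly forms of other tissues, 1, Pgm1 at 1.11, was higher for resistant minus sensitive, and 2, Slc2a6 at −2.65 and Bpgm at −1.59, were lower for sensitive minus control, with medians of 0.16 in both, against −0.07 and 0.09 for all genes.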

How the data were processed

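Processing is described in 2 ways. The labels name the Affymetrix protocol and MAS5 without its version, whereas the study's methods name Illumina bead chips, with BRB-ArrayTools and 100 as the lowest intensity kept. Deposited was a table with 1 value for each of 45101 Affymetrix probe sets on 13 arrays, taken as log2 from its range. How the authors normalized it, and the base of the logarithm, are not stated, so folds rest on a base of 2.

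The 2%-trimmed linear means ran from 19.4 to 33.5, which is 1.73 times and more than the 1.5 allowed, so quantile normalization was applied. Because 91.1% of values lay under 100, the floor was the 30th percentile, 2.01, which understates differences of dim genes. The platform table gave 1 symbol for 34958 probe sets, several for 932 and none for 9211. Each of 18193 genes was read from its probe set of highest mean, and 15384 genes above the floor on at least 4 arrays were tested.

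Group means were fitted in R 4.3.3 with limma 3.58.1 (lmFit and eBayes with an intensity trend, all 13 arrays, two-sided), with Benjamini-Hochberg adjustment over all genes tested, the threshold for a call being an adjusted p of 0.05. Counts at an unadjusted p under 0.05 and medians are descriptions, read against the same over all genes. The scripts were tested on simulated data with 200 changed genes. The precision is limited by the number of arrays, and replicates of a group correlated at r = 0.930 to 0.987 (control), 0.776 to 0.944 (sensitive) and 0.933 to 0.968 (resistant).

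The members, the pathway and marker lists and the tests were chosen with earlier results of these data known. Values on every array are given for genes with an unadjusted p under 0.05 or groups without overlap in a comparison, at most 6 of smallest p per comparison among the glycolysis genes and among the other targets, and for the 3 hexokinases, Gapdh, Slc2a1, Ldha and Car9. Of each pathway list at most 3 genes of smallest p per comparison are named. Alternatives were the scaling, the floor, the filter, the choice of probe set, the variance model, the groups in the fit, the methods' t-test (Student's, with no random variance model), the replicate number as a block and leaving out each array. Leaving out arrays that stood apart and 2 covariates (the macrophage marker median and the 3′ to 5′ difference) were added after seeing the data. Replicate numbers did not pair the samples: deviations of same-numbered samples correlated at −0.43 to 0.53.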

Additional observations from a re-analysis of the deposited data

Results flagged for a closer look

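Ddit4 on resistant array 1 was 5.01, against 6.97 to 7.30 on the other 3 resistant arrays, a gap of 0.855 of the range of the group. It was the only sample far from the rest of its group by Dixon's test among 93 groups of values, and chance alone marks about 1 in 20 groups. The median of the 14 glycolytic enzymes was highest on the same array, at 9.19.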

How the results depend on the processing

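Of 784 values of named genes under alternatives, 1 reversed, Hk3 for resistant minus sensitive, at −0.12 with the macrophage covariate. Another 10 passed an adjusted p of 0.05 only there, and 773 kept their direction and stayed above it. No gene passed it in the main fit, so that count says little about stability. The unadjusted p stayed under 0.05 in each of 28 settings only for Hk1 in resistant minus sensitive and for Pgk1 and Tpi1 in sensitive minus control. Of the 31 genes, 13 had an unadjusted p under 0.05 for resistant minus sensitive, where 7.07% of all genes had. That count was 7 with the methods' t-test (3.44% of all genes), 8 without resistant array 1 (4.61%) to 16 without sensitive array 4 (16.3%), and 4 with the macrophage covariate (4.04%). For sensitive minus control the count of 11 (11.9%) became 10 without control array 4 (8.39%) to 17 without sensitive array 4 (23.2%), and 6 with the macrophage covariate (4.21%). For resistant minus control the main count was 4, beside 0.995% of all genes higher and 1.53% lower. It became 2 on deposited values, with median centring and with the mean of all probe sets. It was also 2 without sensitive arrays 1 and 2 and resistant array 2, 1 with the replicate block and 0 without control arrays 4 and 5. Without single arrays it was 1 to 5. The replicate block gave 12 for resistant minus sensitive (5.41% of all genes) and 12 for sensitive minus control. A count with no share of all genes beside it is compared only with the main fit and not with the background. Without single arrays, adjusted p under 0.05 held for 0 to 3 of the 31 genes for resistant minus sensitive and 0 to 5 for sensitive minus control, the highest without sensitive array 4, and the 3′ to 5′ covariate gave 2 (Hk3 and Pgk1) for the latter.

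The median of the glycolysis genes for sensitive minus control was −0.66 without sensitive arrays 1, 2 and 3, −0.77 with the macrophage covariate and −1.46 to −0.91 without single arrays. That for resistant minus control was −0.12 and changed sign, to 0.12 without resistant array 2 (also with sensitive arrays 1 and 2 left out) and 0.07 without resistant array 4, over a range of −0.27 to 0.12. The median of the other targets for sensitive minus control was −0.77 without sensitive arrays 1 and 2 and resistant array 2, and changed sign to 0.048 without sensitive array 3, over −0.38 to 0.048, and to 0.15 with the 3′ to 5′ covariate. Without single arrays it was 0.27 to 0.80 for resistant minus sensitive and 0.17 to 0.58 for resistant minus control. Median centring moved the median of all genes from −0.07 to 0.04 for resistant minus sensitive and from 0.09 to −0.05 for sensitive minus control, and the glycolysis median for the former from 1.17 to 1.48. The cause of these changes was not tested. Values near the floor limit what Gbe1 and Ankrd37 can show.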
